A study of Mus musculus with 12 samples.

Results

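A set of 10 genes that mark the epithelium of the choroid plexus were followed across whole-brain messenger RNA of mice given lipopolysaccharide (LPS), with or without N,N-dimethylacetamide (DMA). They are Ttr, Enpp2, Ecrg4, Sostdc1, Kl, Folr1, Kcnj13, Clic6, Aqp1 and Otx2, taken by symbol from a list of marker genes and found as 10 of the 56748 genes in the deposited table. The study gave 12 libraries, each from 1 adult C57BL/6 mouse, and the 3 arms held 2 female and 2 male mice apiece. The LPS+DMA arm received LPS, a glycolipid of the bacterial outer membrane that triggers innate immunity, by intraperitoneal injection at 0.5 mg/kg a day for 7 days, together with daily intraperitoneal DMA, a solvent and drug excipient. The sources used here do not give its dose. The LPS arm received the same LPS course alone, the PBS arm received phosphate-buffered saline as its control, and brains were taken on day 7. All mice share the inbred background and no transgene is named. The labels call the tissue whole brain.

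The choroid plexus is a small, folded tissue in the brain ventricles whose epithelial cells secrete cerebrospinal fluid and form the barrier between that fluid and the blood. Its epithelium moves ions and water from blood to fluid, imports nutrients such as folate, and releases carrier proteins, enzymes and growth factor antagonists into the fluid. Several of its transcripts, Ttr above all, are made at very high levels there and at low levels in the rest of the brain.

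The libraries held 27.5 to 41.4 M reads (megareads) assigned to genes, a total recovered from the FPKM steps (FPKM is a count of sequenced fragments divided by gene length in kilobases and by library size), and between 0 and 70975 of them fell on any 1 member. The labelled tissue was checked against regional markers. Cerebellar transcripts were present in 4 libraries, where Gabra6, a GABA receptor gene of granule neurons, reached 114 FPKM (LPS female 1), 15.6 (LPS male 1), 90.5 (LPS male 2) and 74.6 (PBS female 1), and it did not exceed 0.17 FPKM in the other 8. The 11 cerebellar genes of a fixed list summed to 18.6 to 28.6 FPKM in the LPS+DMA arm, 26.8 to 752 in the LPS arm and 25.0 to 518 in the PBS arm. The 12 cortical and hippocampal genes summed to 955 to 1484 FPKM in the LPS+DMA arm, 98.0 to 1114 in the LPS arm and 599 to 1040 in the PBS arm. Within the LPS arm that sum was 215 FPKM in female 1, 105 in male 1 and 98.0 in male 2, against 1114 in female 2. Those 3 LPS libraries were thus low in cortical and hippocampal transcripts, below PBS female 1 (599 FPKM), which also carried a cerebellar signal. LPS female 2 was the only LPS library without a cerebellar signal, and no LPS+DMA library had one, so brain region and treatment cannot be fully told apart. LPS female 2 also differed in its share of reads on ribosomal RNA genes, 0.039%, against 2.88% to 9.79% in the other libraries.

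The members spanned a wide range of abundance. Averaged over the 12 libraries, Ttr had 425 FPKM, Enpp2 74.0, Ecrg4 7.81, Clic6 4.04, Kcnj13 3.48, Kl 2.02, Sostdc1 1.85, Aqp1 1.59, Otx2 1.36 and Folr1 1.21. Ttr and Enpp2 stood apart from the rest, while the means from Ecrg4 down to Folr1 lay within the spread of their own libraries. Ttr was also the most variable member, with a highest library 3064 times its lowest, against 10.9 times for Enpp2 and 93.6 times for Ecrg4. All 10 members passed the filter of at least 0.5 FPKM in at least 2 libraries. Folr1 reached 0.5 FPKM in only 5 libraries, Kl and Aqp1 in 8, Otx2 and Sostdc1 in 9, Clic6 and Ecrg4 in 10, Kcnj13 in 11, and Ttr and Enpp2 in all 12.

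**Figure D1:**
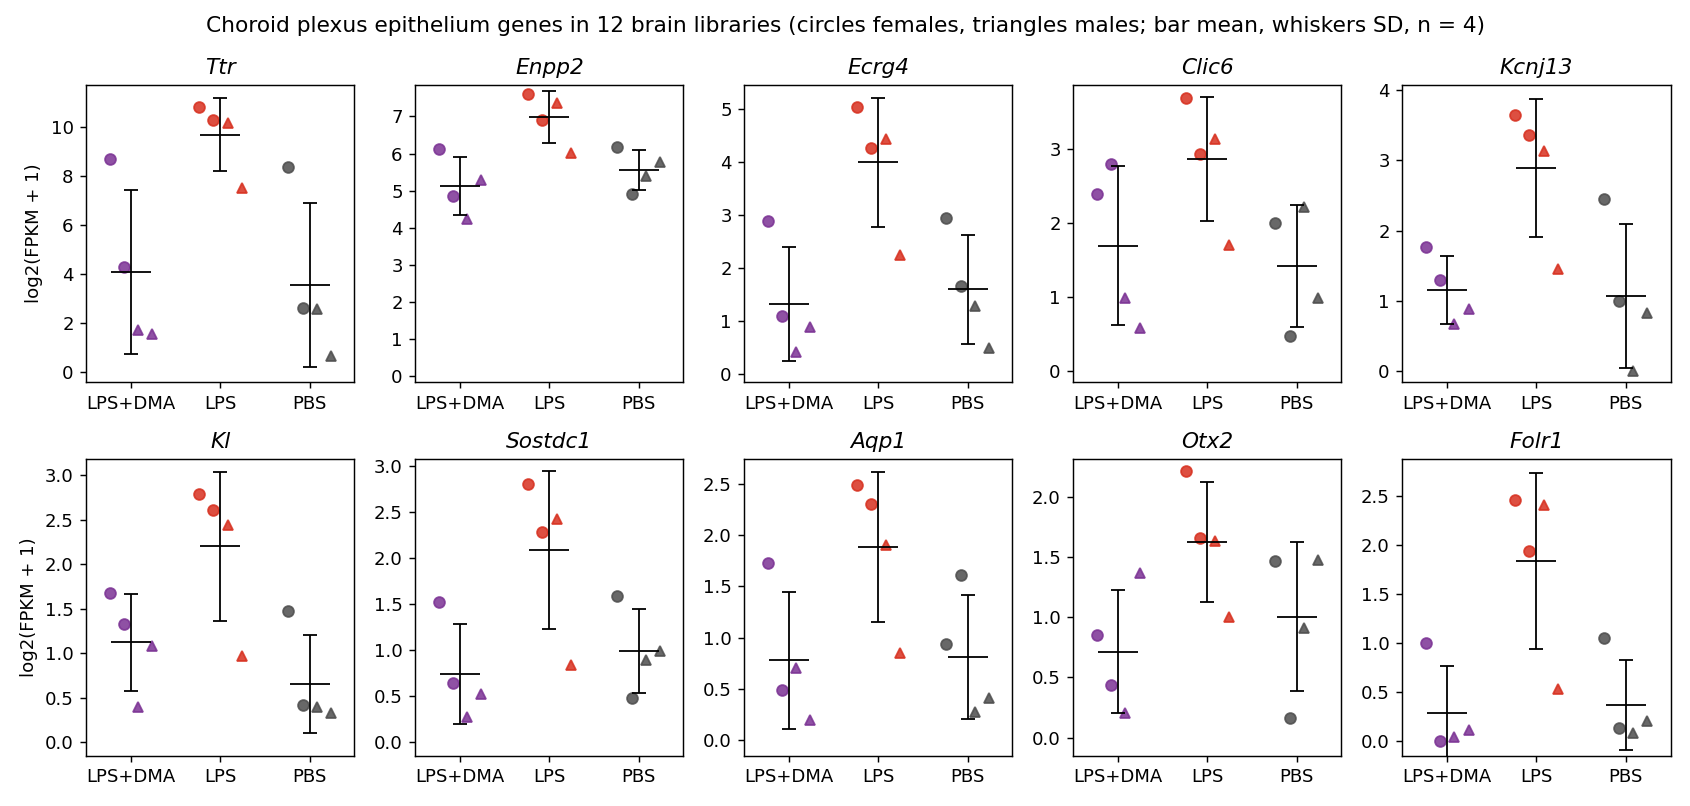
Level of each of the 10 choroid plexus epithelium genes in every library, as log2(FPKM + 1) on the vertical axis, by arm (LPS+DMA, LPS, PBS; circles females, triangles males; bar mean, whiskers SD, n = 4). For all 10 genes 3 of the 4 LPS libraries lie above every LPS+DMA and PBS library, and LPS male 2 lies among them. The share of all genes with this pattern was not counted.

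Among the secreted products, Ttr (ENSMUSG00000061808, chromosome 18) encodes transthyretin, which carries thyroid hormone and, with retinol-binding protein, retinol, and which choroid plexus epithelium secretes into the cerebrospinal fluid. In the LPS+DMA arm it had 416, 18.7, 2.26 and 1.91 FPKM (female 1, female 2, male 1, male 2, the order used for every gene), against 1765, 1244, 1139 and 181 FPKM in the LPS arm and 327, 5.19, 4.89 and 0.576 FPKM in the PBS arm. The first females of the LPS+DMA and PBS arms therefore exceeded the lowest LPS library, and the other 3 libraries of each of those arms were far below it. Ttr fell by 5.62 in LPS+DMA relative to LPS on the log2(FPKM + 1) scale (SE 1.28; adjusted p = 0.0267 with limma), with means of 110 ± 205 FPKM in the LPS+DMA arm and 1082 ± 660 FPKM in the LPS arm (SD, n = 4 each). In whole tissue, fewer choroid plexus cells and less RNA per cell cannot be told apart.

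Enpp2 (ENSMUSG00000022425, chr15:54702297-54816288 in GRCm39, minus strand) encodes autotaxin, a secreted enzyme that makes lysophosphatidic acid and that oligodendrocytes also produce. It had 68.3, 28.0, 17.8 and 38.1 FPKM in the LPS+DMA arm, against 195, 119, 163 and 63.7 FPKM in the LPS arm and 71.3, 29.3, 41.2 and 53.5 FPKM in the PBS arm. Only LPS+DMA female 1 and PBS female 1 exceeded the lowest LPS library. Enpp2 fell by 1.85 in LPS+DMA relative to LPS (SE 0.41; adjusted p = 0.0249, limma). The 10 oligodendrocyte genes of a fixed list summed to 446 to 1067 FPKM in the LPS+DMA arm, 1131 to 2144 in the LPS arm and 573 to 1576 in the PBS arm, and their part in the Enpp2 difference was not tested.

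Ecrg4 (ENSMUSG00000026051, chr1:43769762-43781738, plus strand) encodes the precursor of the secreted peptide augurin. It had 6.39, 1.13, 0.338 and 0.852 FPKM in the LPS+DMA arm, against 31.7, 18.1, 20.7 and 3.74 FPKM in the LPS arm and 6.71, 2.16, 1.417 and 0.413 FPKM in the PBS arm. It fell by 2.67 in LPS+DMA relative to LPS (SE 0.50; adjusted p = 0.0203, limma), the smallest p among the members. Sostdc1 (ENSMUSG00000036169, chr12:36364138-36368451, plus strand), a secreted antagonist of bone morphogenetic proteins that also modulates Wnt signalling, had 1.86, 0.551, 0.206 and 0.432 FPKM in the LPS+DMA arm, against 5.94, 3.83, 4.33 and 0.789 FPKM in the LPS arm and 2.00, 0.396, 0.852 and 0.976 FPKM in the PBS arm. It fell by 1.35 (SE 0.36; adjusted p = 0.0418, limma). For both genes LPS male 2 lay below the first female of the LPS+DMA arm.

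Of the co-receptor and the transport receptor, Kl (ENSMUSG00000058488, chr5:150876072-150917282, plus strand) encodes klotho, the co-receptor of the hormone FGF23, which is also shed into the cerebrospinal fluid. It had 2.203, 1.51, 0.321 and 1.11 FPKM in the LPS+DMA arm, against 5.93, 5.13, 4.42 and 0.953 FPKM in the LPS arm and 1.78, 0.334, 0.320 and 0.253 FPKM in the PBS arm. Its difference between LPS+DMA and LPS was -1.08 (SE 0.32) and missed the threshold (adjusted p = 0.0527, limma). Folr1 (ENSMUSG00000001827, chr7:101507538-101519995, minus strand) encodes the folate receptor that carries folate across the choroid plexus. It had 0.994, 0, 0.0266 and 0.0837 FPKM in the LPS+DMA arm, against 4.52, 2.83, 4.29 and 0.445 FPKM in the LPS arm and 1.07, 0.0944, 0.0580 and 0.149 FPKM in the PBS arm. LPS+DMA female 2 had 0 reads on it, which allows a level of up to 0.0475 FPKM (3 reads), and LPS+DMA male 1 had 2 reads, also under its 3-read level of 0.0399 FPKM. Folr1 fell by 1.55 in LPS+DMA relative to LPS (SE 0.37; adjusted p = 0.0299, limma).

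Of the ion and water channels, Kcnj13 (ENSMUSG00000079436, chr1:87314085-87322451, minus strand) encodes the inward-rectifier potassium channel Kir7.1 of the fluid-facing membrane. It had 2.42, 1.46, 0.601 and 0.847 FPKM in the LPS+DMA arm, against 11.4, 9.24, 7.75 and 1.73 FPKM in the LPS arm and 4.48, 1.00, 0 and 0.782 FPKM in the PBS arm, where the 0 of male 1 allows up to 0.0629 FPKM. It fell by 1.73 (SE 0.38; adjusted p = 0.0250, limma). Aqp1 (ENSMUSG00000004655, chr6:55313417-55325540, plus strand), the water channel of the same membrane, had 2.32, 0.402, 0.627 and 0.146 FPKM in the LPS+DMA arm, against 4.60, 3.93, 2.74 and 0.797 FPKM in the LPS arm and 0.911, 2.05, 0.213 and 0.331 FPKM in the PBS arm. It fell by 1.10 (SE 0.30; adjusted p = 0.0416, limma). In both channels LPS male 2 was the only LPS library within the LPS+DMA range.

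Clic6 (ENSMUSG00000022949, chr16:92282624-92338131, plus strand), a member of the chloride intracellular channel family, had 4.29, 5.98, 0.983 and 0.491 FPKM in the LPS+DMA arm, against 12.002, 6.68, 7.79 and 2.25 FPKM in the LPS arm and 2.99, 0.388, 3.67 and 0.976 FPKM in the PBS arm. Both LPS+DMA females exceeded the lowest LPS library, and the difference of -1.18 (SE 0.52) missed the threshold (adjusted p = 0.161, limma). Otx2 (ENSMUSG00000021848, chr14:48895134-48911276, minus strand), the homeodomain transcription factor needed to form and maintain the choroid plexus, had 0.805, 0.353, 0.152 and 1.58 FPKM in the LPS+DMA arm, against 3.65, 2.15, 2.11 and 0.999 FPKM in the LPS arm and 1.77, 0.122, 0.883 and 1.78 FPKM in the PBS arm. Its difference between LPS+DMA and LPS was -0.91 (SE 0.36; adjusted p = 0.123, limma). It was the member whose highest LPS+DMA library was a male.

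LPS+DMA was set against LPS to ask whether DMA given with LPS changed these transcripts. With limma on log2(FPKM + 1) over all 12 libraries, 7 of the 10 members were lower in LPS+DMA at an adjusted p under 0.05 (Ttr, Enpp2, Ecrg4, Sostdc1, Folr1, Kcnj13 and Aqp1) and 0 were higher, where 3.88% of the 19571 genes tested were called lower and 9.67% were called in either direction. All 10 differences were below 0, as were 48.8% of those of all genes, with a median of -1.45, against a median of 0.010 over all genes tested. All 10 were lower at an unadjusted p under 0.05, against 13.6% of all genes. For none of the 10 did the 2 arms separate completely, where 5.98% of all genes had every LPS+DMA library below every LPS library. Over all genes the 1892 calls in either direction became 11 without LPS female 1, 7 without LPS male 1 and 22 without LPS male 2. They became 1071, 1506 and 1119 without LPS+DMA female 2, male 1 and male 2. The member count of 7 fell to 0 without LPS female 1 or LPS male 1, and to 1 without LPS male 2 or LPS+DMA female 2. It was 3 without LPS+DMA male 1 or male 2. It was also 0 without the 4 libraries with a cerebellar signal, which leaves LPS female 2 as the only LPS library, 0 with a forebrain-minus-cerebellum covariate, 0 with no filter or with only the 2 arms in the fit, and 3 with no sex term, while the median difference was -1.48 without those libraries and -1.423 with the covariate.

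LPS was set against PBS to ask what LPS alone did, using the same LPS libraries. None of the 10 members passed the threshold (limma), where 0.0102% of all genes tested, 2 genes, were called. All 10 were above 0, against 48.3% of all genes, with a median of 1.46, against -0.0093 over all genes, and 9 of the 10 were higher at an unadjusted p under 0.05, against 4.55% of all genes. The largest was Ttr at 6.13 (SE 1.28; adjusted p = 0.183, limma), with means of 1082 ± 660 FPKM in the LPS arm and 84.3 ± 162 FPKM in the PBS arm (SD, n = 4 each). Ecrg4 differed by 2.40 (SE 0.50), Kcnj13 by 1.82 (SE 0.38), Kl by 1.55 (SE 0.32), Folr1 by 1.47 (SE 0.37), Clic6 by 1.45 (SE 0.52), Enpp2 by 1.41 (SE 0.41), Sostdc1 by 1.10 (SE 0.36) and Aqp1 by 1.07 (SE 0.30). Otx2 differed least, by 0.62 (SE 0.36). Without LPS female 2, the LPS library that had no cerebellar signal, 4 members were higher (limma), where 0.955% of all genes were called higher and 3.43% in either direction: Ttr (adjusted p = 0.0322), Ecrg4 (0.0346), Kl (0.0439) and Kcnj13 (0.0466).

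LPS+DMA was set against PBS to ask how far the arm with both agents stood from the control. None of the 10 members passed the threshold (limma), against 0.0102% of all genes, and 0 had an unadjusted p under 0.05, against 11.4% of all genes. The differences ran from -0.44 for Enpp2 (SE 0.41) to 0.51 for Ttr (SE 1.28), with 4 above 0, 6 below (49.9% of all genes were below) and a median of -0.054. Kl differed by 0.47 (SE 0.32), with 1.29 ± 0.79 FPKM in the LPS+DMA arm and 0.672 ± 0.740 FPKM in the PBS arm (SD, n = 4 each). For 8 of the 10 members the difference was smaller than its SE. The share of all genes for which this holds was not counted, so the count does not show that the members were at the control level. The 3 comparisons share arms, so their differences are not independent of each other.

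**Figure D2:**
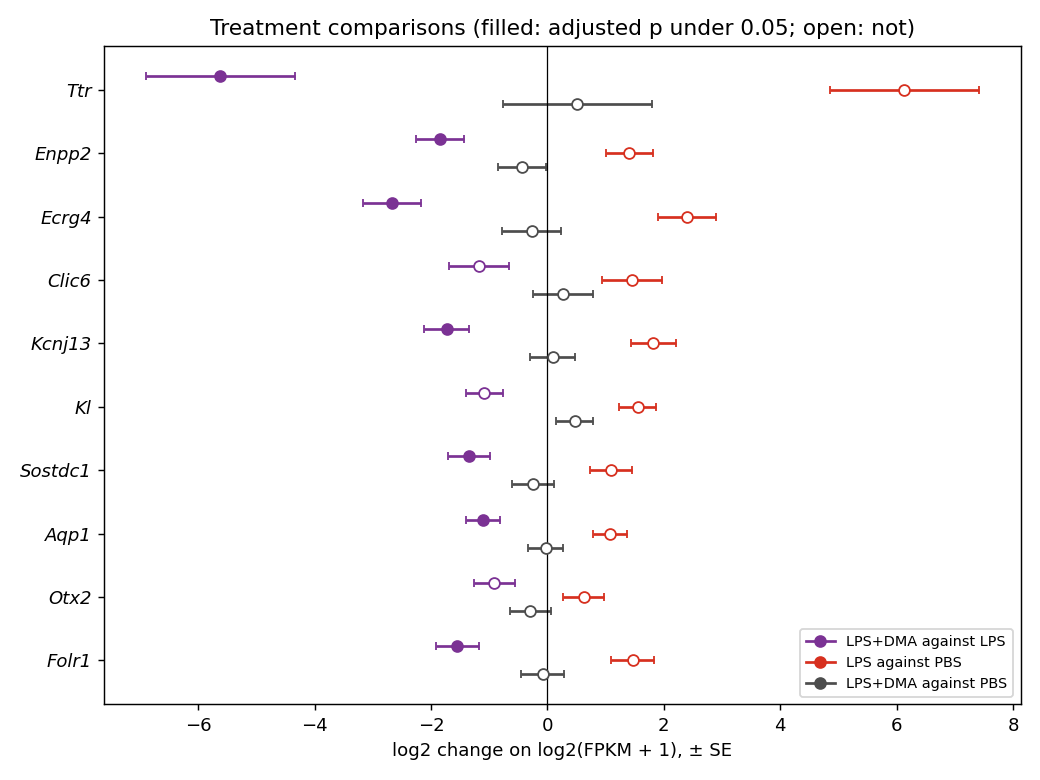
Difference of each gene in the 3 treatment comparisons on the log2(FPKM + 1) scale, with SE bars (filled points have an adjusted p under 0.05, open points do not). LPS+DMA against LPS lies below 0 for all 10 genes, LPS against PBS lies above 0 for all 10, and LPS+DMA against PBS lies between -0.44 and 0.51.

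The same libraries carried the members up and down together. LPS female 1 had the highest level of all 10 genes, and LPS female 1, LPS female 2 and LPS male 1 held the top 3 places for each of the 10. LPS male 2 lay within the range of the LPS+DMA arm and within that of the PBS arm for all 10. In the LPS+DMA arm female 1 was highest for 8 members and in the PBS arm female 1 was highest for 7. LPS+DMA male 1 was among the 3 lowest libraries for 8 members. LPS female 2, with Gabra6 at 0 FPKM, was higher than each of the other 7 libraries without a cerebellar signal for all 10 members. LPS male 2 and PBS female 1, which both carried a cerebellar signal, lay below the other 3 LPS libraries for all 10. The share of all genes tested that orders the libraries in these ways was not counted. These counts therefore describe the members and do not set them apart from other genes.

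**Figure D3:**
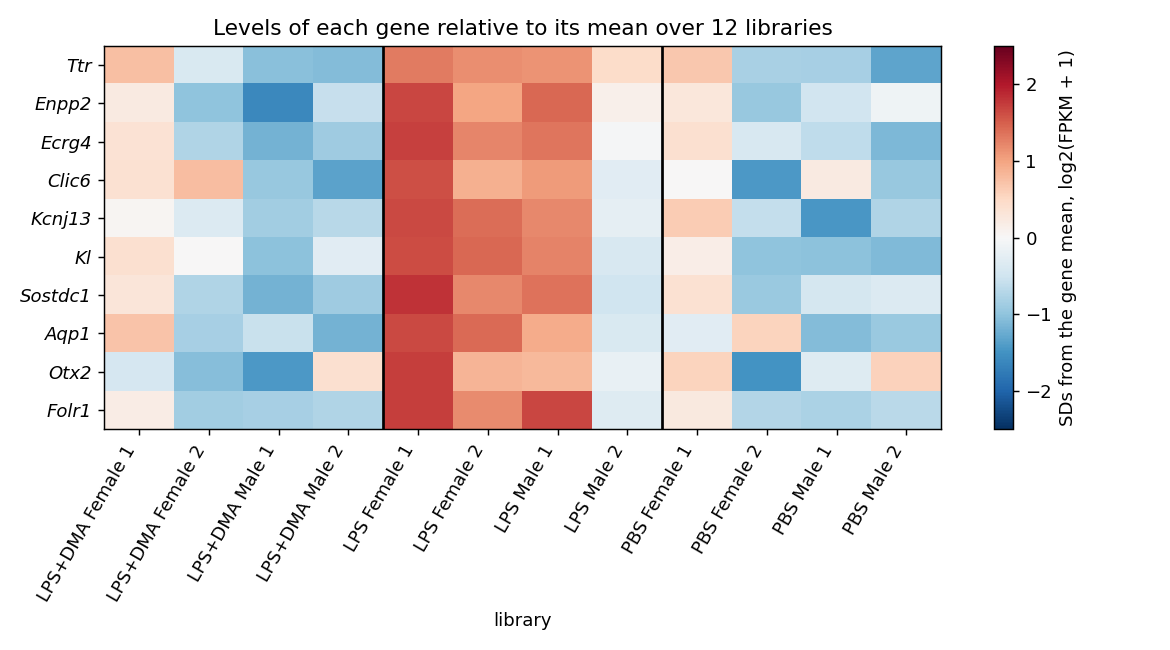
Level of each gene (rows) in each library (columns, arms in the order LPS+DMA, LPS, PBS), as SDs from the mean of that gene over 12 libraries on log2(FPKM + 1). LPS female 1, female 2 and male 1 are high for all 10 genes, and the first females of the other 2 arms stand above most libraries of their arms.

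Summed over the 10 members, the level was 506, 58.1, 23.3 and 45.6 FPKM in the LPS+DMA arm, 2039, 1415, 1356 and 257 FPKM in the LPS arm, and 420, 41.0, 53.5 and 59.8 FPKM in the PBS arm. Ttr made up 82.3% of that sum in LPS+DMA female 1 and 4.19% in LPS+DMA male 2, against 70.6% to 87.9% in the LPS libraries, and 77.8% in PBS female 1 and 0.964% in PBS male 2. In the 6 libraries with Ttr above 100 FPKM the ratio of each other member to Ttr varied between 1.41-fold (Ecrg4) and 3.67-fold (Enpp2). For each 1000 FPKM of Ttr those libraries had 14.6 to 20.6 FPKM of Ecrg4, 3.36 to 5.45 of Kl and 2.28 to 3.77 of Folr1, the 3 narrowest ranges. Sostdc1 varied there by 1.99-fold, Clic6 by 2.31-fold, Aqp1 by 2.32-fold, Kcnj13 by 2.36-fold and Otx2 by 3.18-fold, and Enpp2 ranged from 95.6 to 351 FPKM. In the 6 libraries with less Ttr the same ratios ran from 60.3 to 717 for Ecrg4 and from 1494 to 92949 for Enpp2. Ttr thus varied more between libraries than these members did.

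Females and males of each arm were compared by the difference between the female and the male change. No gene passed the threshold in any of the 3 comparisons (limma). Of the 19571 genes tested, 1008 had an unadjusted p under 0.05 in LPS+DMA against LPS, 491 in LPS against PBS and 1110 in LPS+DMA against PBS. Among the members the smallest p belonged to Clic6 in LPS+DMA against PBS, which differed by 1.37 in females and by -0.82 in males (unadjusted p = 0.0351, adjusted p = 0.838, limma). Ttr differed between LPS+DMA and LPS by -4.03 in females and by -7.21 in males (adjusted p of the difference = 0.874, limma). Each arm holds 2 mice of each sex, which limits what this comparison can resolve.

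Other genes of the same epithelium lay mostly on the same side as the members. Of a fixed list of 30 further choroid plexus genes 27 were tested, and 12 were lower in LPS+DMA than in LPS (limma) against 3.88% of all genes, 0 were higher, and 26 of 27 differences lay below 0 with a median of -0.78. In 8 of the 27 every LPS+DMA library lay below every LPS library, against 5.98% of all genes. Trpv4, a cation channel opened by osmotic and mechanical stimuli, fell by 0.78 (SE 0.14; adjusted p = 0.0192, limma), with 0.450 ± 0.078 FPKM in the LPS+DMA arm and 1.51 ± 0.44 FPKM in the LPS arm. Slc4a5, the sodium bicarbonate cotransporter of choroid plexus epithelium, fell by 1.32 (SE 0.25; adjusted p = 0.0203), and lay between 0 and 0.489 FPKM in the LPS+DMA arm, against 0.603 to 3.28 FPKM in the LPS arm. Rdh5, a retinol dehydrogenase, fell by 0.92 (SE 0.18; adjusted p = 0.0213, limma). Kcne2, a potassium channel subunit of the same cells and the list's largest difference, chosen after its values were seen, fell by 1.99 (SE 0.46; adjusted p = 0.0279, limma).

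The summed level of the 30 genes was 60.7 to 78.9 FPKM in the LPS+DMA arm, 90.0 to 163 FPKM in the LPS arm and 55.3 to 81.1 FPKM in the PBS arm. In this sum LPS male 2, the lowest LPS library, stood above every library of the other arms. Abundant genes weight it, such as Vat1l (29.0 ± 5.2 FPKM in the LPS arm) and Igfbp2 (23.7 ± 6.7 FPKM). For Kcne2 the lowest LPS library had 0.853 FPKM, against up to 1.23 in the LPS+DMA arm and 1.72 in the PBS arm. Taken singly, 8 of the 27 tested genes had the LPS arm wholly above LPS+DMA, against 5.98% of all genes. In 5 of the 27 it lay wholly above PBS. The share of all genes with that second pattern is not given here, so the count of 5 is only a description. In LPS against PBS 0 of the 27 passed, all 27 lay above 0 and the median was 0.63. In LPS+DMA against PBS 0 passed, with a median of -0.021. The count of 12 was 0 without LPS female 1, without LPS male 1, without the libraries with a cerebellar signal or with the regional covariate, 2 without LPS male 2, 5, 6 and 8 without LPS+DMA female 2, male 2 and male 1, 1 with no filter, and 0 with only the 2 arms in the fit. The median was -0.76 without the libraries with a cerebellar signal and -0.60 with the covariate.

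**Figure D4:**
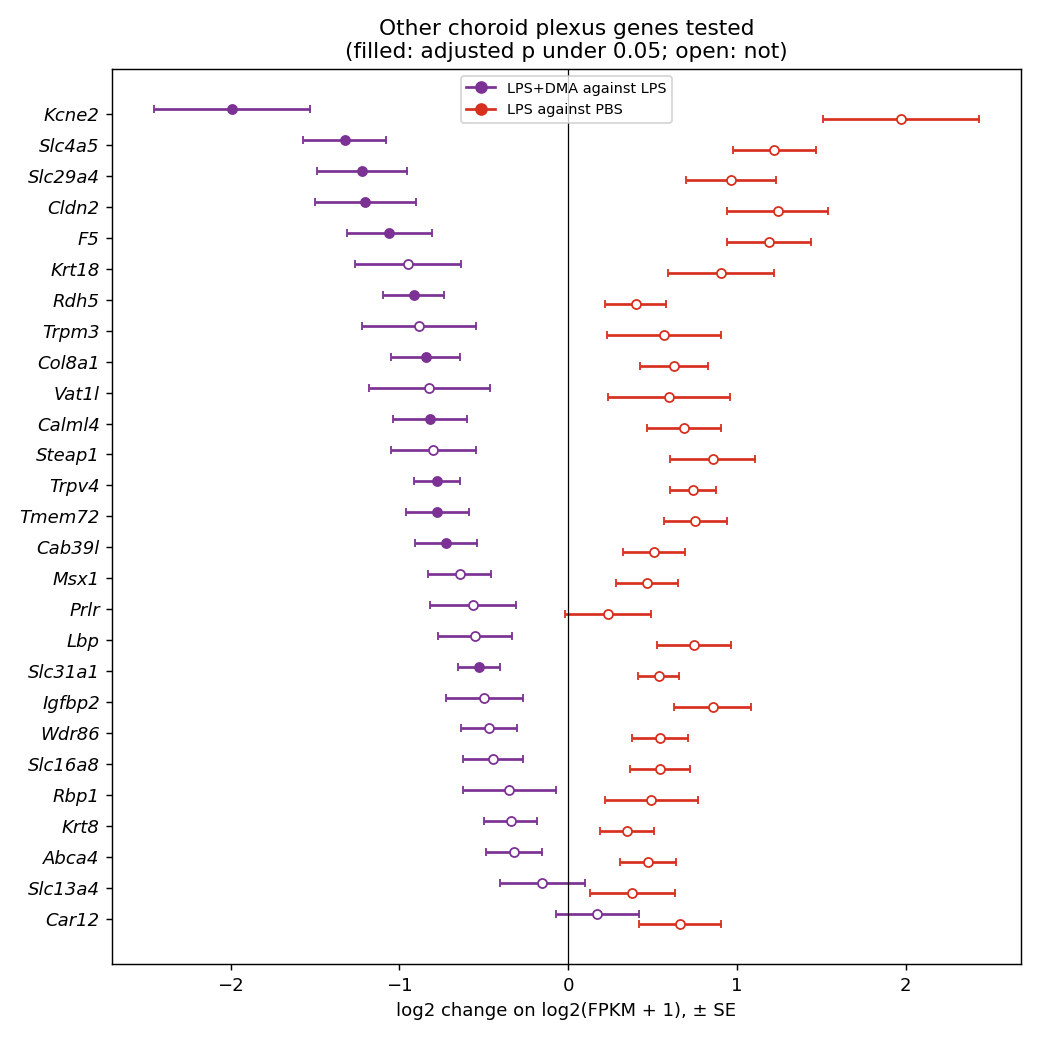
Differences of the 27 tested genes among 30 other choroid plexus genes in LPS+DMA against LPS and in LPS against PBS, on the log2(FPKM + 1) scale with SE bars (filled points have an adjusted p under 0.05). In LPS+DMA against LPS 12 genes pass, all below 0, and 26 of 27 lie below 0, while in LPS against PBS all 27 lie above 0 and none passes.

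Genes of the pathways that the members serve moved less uniformly in LPS+DMA against LPS, where 5.79% of all genes were called higher and 3.88% lower. Among 17 tested genes of fluid secretion and ion transport 6 were lower and 1 was higher (limma). The higher gene, named after its values were seen, was Slc4a10 (0.72, SE 0.18; adjusted p = 0.0355, limma). It had 46.2 ± 9.1 FPKM in the LPS+DMA arm and 28.2 ± 8.6 FPKM in the LPS arm. Fxyd1, a regulator of the sodium pump, fell by 1.03 (adjusted p = 0.0186), Car2, a carbonic anhydrase, by 1.37 (adjusted p = 0.0219), and Aqp4, the water channel of astrocytes, by 1.61 (adjusted p = 0.0242). Beside Ttr, 4 of 12 tested thyroid hormone and retinol genes were higher and 0 lower. Dio2, which makes active thyroid hormone, rose by 0.97 (adjusted p = 0.0182, limma), with 14.1 ± 1.2 FPKM in the LPS+DMA arm and 6.86 ± 1.67 FPKM in the LPS arm. Rbp4, the retinol carrier that binds transthyretin, rose by 0.78 (adjusted p = 0.0299), and Crym, which binds thyroid hormone in cells, by 2.34 (adjusted p = 0.0468).

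Beside Kl, 1 of 6 tested genes of the FGF23 co-receptor pathway was lower, Adam17, a sheddase that releases klotho (-0.51, adjusted p = 0.0323, limma), while the receptors Fgfr2 (-0.76, adjusted p = 0.0552) and Fgfr1 (-0.56, adjusted p = 0.0826) missed the threshold. Beside Enpp2, 2 of 7 genes of lysophosphatidic acid metabolism and reception were lower, Plpp2, a lipid phosphate phosphatase (-1.01, adjusted p = 0.0293, limma), and Enpp1, a related ectoenzyme (-0.54, adjusted p = 0.0301). The receptor Lpar1 differed by -1.21 and missed it (adjusted p = 0.0527). Beside Folr1, 3 of 12 folate genes were lower, among them Slc46a1, the proton-coupled folate transporter (-0.57, adjusted p = 0.0324, limma), the mitochondrial enzyme Mthfd2 (-1.04, adjusted p = 0.0253) and the hydrolase Ggh (-0.51, adjusted p = 0.0472). Beside Sostdc1, 2 of 13 genes of Wnt and bone morphogenetic protein signalling were higher, Dkk3 (1.59, adjusted p = 0.0253, limma) and the receptor Bmpr2 (0.45, adjusted p = 0.0349). Beside Otx2, 1 of 8 tested transcription factors was lower, Foxj1, a regulator of motile cilia (-1.03, adjusted p = 0.0240, limma). In these 7 pathway lists 0 genes passed without the libraries with a cerebellar signal, with the regional covariate, or without any 1 of LPS female 1, male 1 and male 2. Without LPS female 2 the calls were 1 higher and 6 lower for fluid secretion and ion transport, and 6 higher for thyroid hormone and retinol. They were 3 lower for the FGF23 pathway, 4 lower for lysophosphatidic acid and 2 lower for folate. Wnt and bone morphogenetic proteins had 3 higher, and the transcription factors 2 higher and 2 lower. In that setting 9.48% of all genes were called higher and 8.22% lower. In LPS against PBS and LPS+DMA against PBS 0 genes of any of these lists passed (limma).

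Markers of other cells were read beside the members. The 11 tested of 16 ependymal genes, which mark the ciliated cells that line the ventricles, gave 0 calls in LPS+DMA against LPS (limma), and the 16 summed to 4.28 to 14.4 FPKM in the LPS+DMA arm, 11.4 to 27.2 in the LPS arm and 6.51 to 33.3 in the PBS arm. The highest library of that sum was PBS male 1, whose members summed to 53.5 FPKM. The 12 stroma and meninges genes summed to 41.8 to 67.5 FPKM in the LPS+DMA arm, 63.7 to 152 in the LPS arm and 24.9 to 74.2 in the PBS arm. One of the 12 passed, Spp1, a secreted matrix protein that is also made by activated microglia (-2.39, adjusted p = 0.0255, limma). Over all genes 3.88% were called lower and 9.67% in either direction. The stroma count was 0 with the regional covariate or without any 1 of LPS female 1, male 1 and male 2. Without LPS female 2 it was 2, where 8.22% of all genes were called lower. The median difference of the 12 genes was -0.28, and -0.014 without the libraries with a cerebellar signal. The 8 red blood cell genes summed to 46.8 to 314 FPKM in the LPS+DMA arm, 261 to 967 in the LPS arm and 87.7 to 132 in the PBS arm. In LPS+DMA against LPS 0 of 7 tested genes passed the threshold, and 3 were lower without LPS female 2. All 7 differences lay below 0, against 48.8% of all genes. Their median was -1.49, near the -1.45 of the members, and -0.16 without the libraries with a cerebellar signal. In LPS against PBS all 7 lay above 0, against 48.3% of all genes, with a median of 2.08 and 0 past the threshold. The beta-globin gene Hbb-bs differed by -1.80 (adjusted p = 0.0913, limma) between LPS+DMA and LPS. The parts of stroma and blood in the members' differences were not tested.

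Retinal pigment epithelium and the pineal gland share Ttr, Otx2 or Kcnj13 with the choroid plexus. Their 11 marker genes summed to 3.90 to 6.66 FPKM in the LPS+DMA arm, 3.90 to 9.04 in the LPS arm and 5.38 to 11.3 in the PBS arm, Rgr never exceeded 3 reads, and 0 of 4 tested genes passed. Rpe65, the retinoid isomerase that defines pigment epithelium, lay between 0.199 and 1.17 FPKM in the LPS+DMA arm and between 0.185 and 1.19 FPKM in the LPS arm. The 8 genes of border macrophages, which live in the plexus stroma and meninges, summed to 2.08 to 5.47 FPKM in the LPS+DMA arm, 3.95 to 6.21 in the LPS arm and 1.96 to 4.16 in the PBS arm, with 0 of 6 tested genes past the threshold. No cerebellar gene passed in LPS+DMA against LPS, while all 11 differences lay below 0, against 48.8% of all genes. The median of those 11 was -2.54, and 0.059 without the libraries with a cerebellar signal. Of 12 cortical and hippocampal genes 8 were higher in LPS+DMA than in LPS (limma), against 5.79% of all genes. The count of 8 was 0 without the libraries with a cerebellar signal, with the regional covariate, or without any 1 of LPS female 1, male 1 and male 2, and the median difference of the 12 genes was 2.18 over all libraries and 0.35 without those with a cerebellar signal. Without LPS female 2, 11 of 11 cerebellar genes were lower and 10 of 12 cortical and hippocampal genes higher, where 8.22% of all genes were called lower and 9.48% higher.

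**Figure D5:**
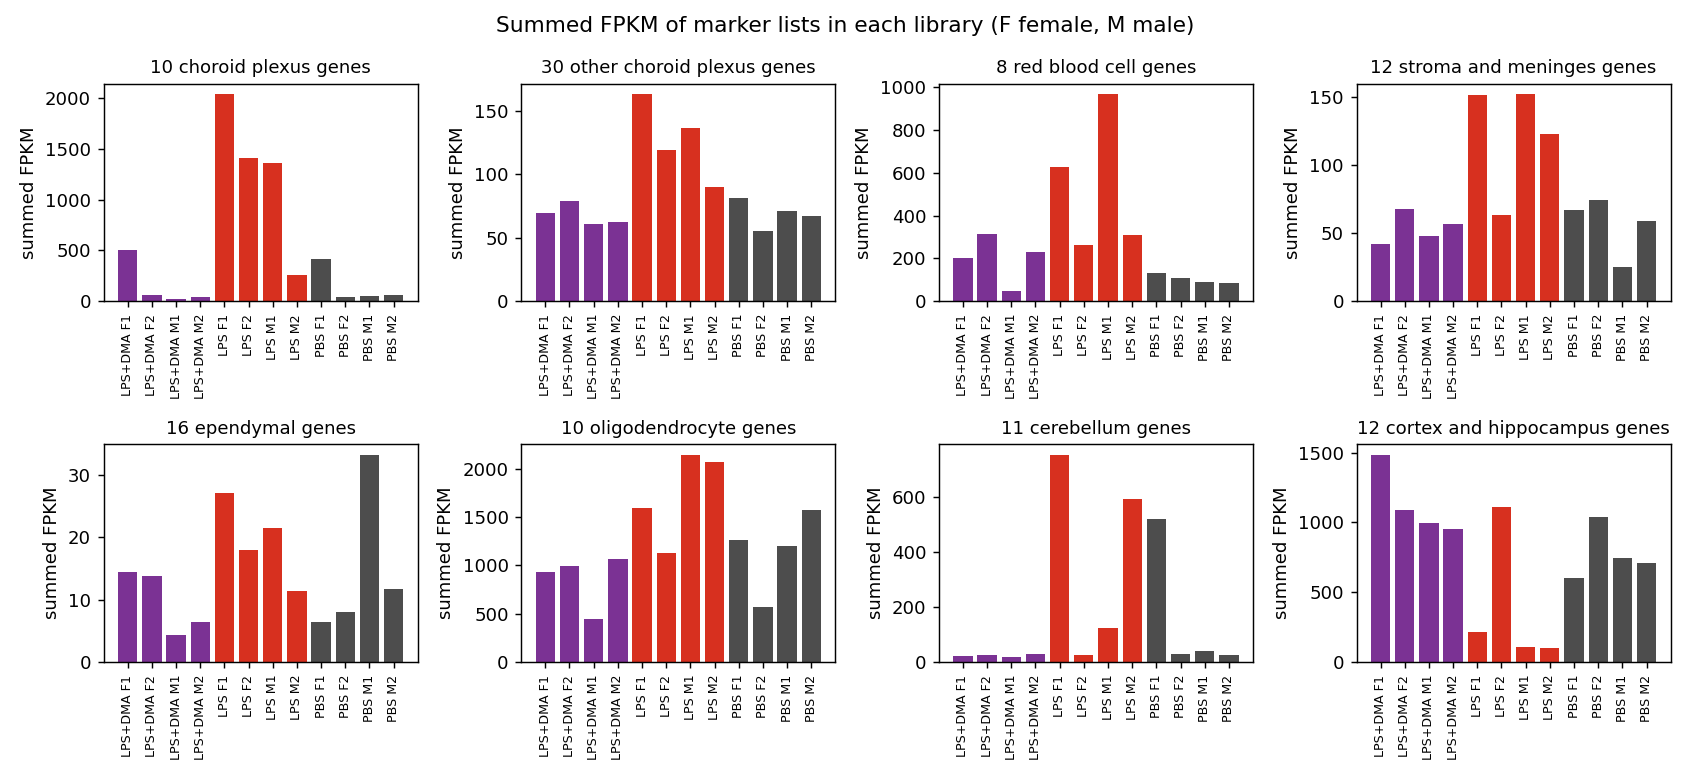
Summed FPKM of the 10 choroid plexus genes and of 7 marker lists in every library (vertical axis from 0; LPS+DMA, LPS and PBS from left to right; F female, M male). The members and the 30 other choroid plexus genes peak in LPS F1, F2 and M1, the cerebellar sum is high in LPS F1, LPS M2 and PBS F1, and the ependymal sum is highest in PBS M1.

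Genes outside the members were ranked by how many of the 66 pairs of libraries they ordered in the same way as the mean standardized member. The median over all genes tested was 32 pairs, and the members themselves reached 53 (Otx2) to 62 (Enpp2 and Sostdc1), as they enter that mean. The coding genes most alike were Tmem72 with 63 pairs, Slc4a5 with 62, Slc16a9 with 60, and Krt18, Col9a3, F5, Cab39l, Ly6g6d, Irf7 and Mmut with 59 each. Of these, Tmem72, Slc4a5, Krt18, F5 and Cab39l are on the list of other choroid plexus genes. This order is a description of 12 libraries that differ in depth and in their cerebellar signal.

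Promoter sequence was read for the members that have an entry, since the members moved together and Otx2 is a homeodomain factor. RefSeq (GRCm38.p6) gave the 250 bases before the start of Ecrg4, Kcnj13, Kl, Aqp1 and Otx2, in 8 windows of which 4 belong to Otx2. The bicoid-class homeodomain core TAATCC, searched on both strands, was found in 1 of the 8 windows, and in 6.25% of the 32851 windows of all genes. The Otx2 window that holds it is shown first, with the core in capitals as its reverse complement GGATTA, whose first base lies at -211 from the start. The windows of Ecrg4, Kcnj13 and Aqp1 are the members with an entry that passed in LPS+DMA against LPS, and none of these 3 holds the core. Each runs 5′ to 3′ on the strand of its gene.
Otx2 (chr14:48665110-48665359, minus strand): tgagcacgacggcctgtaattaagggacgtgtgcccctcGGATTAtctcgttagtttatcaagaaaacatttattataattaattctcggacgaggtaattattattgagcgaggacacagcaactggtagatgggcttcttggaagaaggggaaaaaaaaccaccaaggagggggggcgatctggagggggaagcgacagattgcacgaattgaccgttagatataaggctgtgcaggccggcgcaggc
Ecrg4 (chr1:43730352-43730601, plus strand): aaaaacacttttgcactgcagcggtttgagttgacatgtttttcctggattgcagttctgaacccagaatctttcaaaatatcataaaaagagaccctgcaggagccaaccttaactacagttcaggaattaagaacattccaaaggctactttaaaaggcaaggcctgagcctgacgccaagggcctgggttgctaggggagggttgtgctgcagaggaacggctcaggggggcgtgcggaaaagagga
Kcnj13 (chr1:87394730-87394979, minus strand): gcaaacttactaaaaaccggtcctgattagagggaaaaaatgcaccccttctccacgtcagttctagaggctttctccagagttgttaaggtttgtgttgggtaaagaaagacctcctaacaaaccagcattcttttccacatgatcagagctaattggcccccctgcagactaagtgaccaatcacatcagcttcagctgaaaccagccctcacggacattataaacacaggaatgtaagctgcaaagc
Aqp1 (chr6:55336049-55336298, plus strand): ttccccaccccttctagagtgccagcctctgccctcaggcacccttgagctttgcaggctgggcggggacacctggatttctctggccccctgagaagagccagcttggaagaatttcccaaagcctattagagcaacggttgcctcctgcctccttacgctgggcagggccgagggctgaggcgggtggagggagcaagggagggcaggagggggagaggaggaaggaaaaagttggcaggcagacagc
The letters are a description of these windows and say nothing about binding of the factor. Ttr, Enpp2, Folr1, Clic6 and Sostdc1 are named without a sequence.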

How the data were processed

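Messenger RNA selected with poly-T beads was sequenced from 12 brains. The deposited table holds FPKM values by the authors for 56748 genes, with gene lengths, and its low values are whole multiples of 1 read (100% of values of up to 1000 reads within 0.1), from which read totals were recovered. The FPKM follow a scaling between libraries that is not a plain total. The submitters' processing notes name build GRCm39, the aligners HISAT2 2.2.1 and STAR, featureCounts 2.0.6, edgeR 4.0.16, DESeq2 1.42.0, GATK and fastp. Per the labels' protocols both stranded and unstranded library preparations are described, without saying which was used, so genes that overlap on opposite strands are uncertain. Gene coordinates are those of the deposited table, and promoter sequences come from RefSeq GRCm38.p6 with no conversion between builds.

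Tests used limma 3.58.1 in R 4.3.3 on log2(FPKM + 1), which shrinks the changes of low genes. The model had arm and sex over all 12 libraries, with a variance trend and robust moderation, on 19571 genes with at least 0.5 FPKM in at least 2 libraries. Benjamini-Hochberg adjustment ran over all of them, with a threshold of 0.05. The model was also run on simulated data with known changes and independent noise in each gene. Those data held no regional difference shared between genes, so the simulation does not bear on the regional limits given above. No 2 libraries agreed within sampling noise (chi-square per degree of freedom of at least 27.6). The 3-read levels cover counting error only.

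The members, gene lists, named genes (all members, the 3 lowest p per list, the 10 most alike coding genes) and tests were chosen with earlier results of these data known. Alternatives covered pseudocount, filter, scaling, variance model, terms, samples, reads in place of FPKM, and each library left out.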

Additional observations from a re-analysis of the deposited data

Results flagged for a closer look

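The 10 members in 3 arms make 30 groups of 4 libraries, and in 6 of them the highest library stood apart by the gap test used here. Its nominal rate of chance flags is about 5% of groups. The test used FPKM, not the log2(FPKM + 1) scale of the other tests, on which high values lie closer together. On that scale Ttr in the LPS+DMA arm had 8.71, 4.30, 1.71 and 1.54. The nominal rate may therefore not hold, and the 6 are a description. All 6 lie in a first female. LPS+DMA female 1 stood apart for Ttr (416 FPKM, the next library of its arm at 18.7), for Ecrg4 (6.39 FPKM, next 1.13) and for Folr1 (0.994 FPKM, next 0.0837). PBS female 1 stood apart for Ttr (327 FPKM, next 5.19), for Kl (1.78 FPKM, next 0.334) and for Folr1 (1.07 FPKM, next 0.149). PBS female 1 carried a cerebellar signal (Gabra6 at 74.6 FPKM) and LPS+DMA female 1 did not (0 FPKM). No gap of this kind was found in the LPS arm, where LPS male 2 was the lowest library for all 10 members. The groups share libraries, so the 6 are not independent.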

How the results depend on the processing

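In LPS+DMA against LPS the 10 members kept their direction in all 25 settings, and in LPS against PBS likewise. Over members and alternatives in LPS+DMA against LPS, 164 results kept their side of the threshold, 4 came to pass it and 72 lost it. The 7 members past the threshold became 0 with no filter on low values, 0 with only the 2 arms compared in the fit, 0 with the forebrain-minus-cerebellum covariate, 0 without the libraries with a cerebellar signal and 3 with no sex term. Leaving out 1 library gave 0 to 8. In LPS against PBS the count of 0 ranged from 0 to 4 with 1 library left out. Over all genes the 1892 calls in LPS+DMA against LPS became 83 with no filter, 5 with only the 2 arms, 2 with the covariate, 5 without the libraries with a cerebellar signal, and 7 to 3465 with 1 library left out. Scaling each library to the same total gave 2872 calls, 587 higher and 2285 lower, against 1133 higher and 759 lower, and moved the median of all genes to -0.11. The 2 calls in LPS against PBS became 1 with a pseudocount of 0.1, with no filter, with the replicate block or with voom on recovered reads, 4 with only the 2 arms or without the libraries with a cerebellar signal, 0 with the covariate, and 0 to 672 with 1 library left out. The 2 calls in LPS+DMA against PBS became 0 with no filter, no sex term, only the 2 arms, voom or without the libraries with a cerebellar signal, 1 with the block or the covariate, and 0 to 6 with 1 library left out. The cause of these changes was not tested.

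In LPS+DMA against PBS, where no member passed, 13 results changed sign. With 1 library left out Ttr ranged from -0.57 to 1.66, Folr1 from -0.27 to 0.13, Kcnj13 from -0.14 to 0.40, Clic6 from -0.23 to 0.72, Aqp1 from -0.22 to 0.24 and Ecrg4 from -0.61 to 0.067, and Folr1 was 0.11 without the libraries with a cerebellar signal. Replicate numbers are shared between arms, but over all genes the deviations of same-numbered libraries correlated at -0.30 to 0.41, and in 3 of 24 pairings of a library with another arm the highest correlation was with its own number. For the members, female 1 was the highest library of the LPS+DMA, LPS and PBS arms for 8, 10 and 7 genes. With the number as a replicate block 8 members passed in LPS+DMA against LPS, with 2040 genes. A planned quasi-likelihood fit to the recovered reads was not run, and voom on the same reads was. Folr1 rests on 0 to 376 reads a library and Kcnj13 on 0 to 493, so depth limits their low levels.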
